A study of Papio hamadryas with 17 samples.

Results

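Immediate early genes are transcribed within minutes of a stimulus, without new protein synthesis. The 7 described here are FOS, JUN, JUNB, EGR1, ATF3, DUSP1 and IER2. They were taken by gene name from the deposited transcript tables of baboon kidney cortex biopsies, where they have 8 transcripts, 2 of them for ATF3. All 7 were found among the 10006 genes present in both tables, and all 7 passed the filter on low values (8 or more libraries with a signal of 1 or more) that left 9575 genes to test. In the coordinates of the deposited tables, whose genome build the sources used here do not give, FOS lies on the plus strand of NC_018158.2 from 131989335 to 131993132 and JUN on the minus strand of NC_018152.2 from 57114357 to 57117698. EGR1 (132787728 to 132791554, plus strand) and DUSP1 (167078462 to 167081574, minus strand) are on NC_018157.2. JUNB (11568828 to 11570684) and IER2 (11942625 to 11945666) are both on the plus strand of NC_018170.2. Signal is the deposited value per transcript after its offset of 1 was taken off, summed per gene, and it carries no stated unit. It is not known to be divided by transcript length, so levels are compared between libraries and never between genes.

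The biopsies came from 8 female Papio hamadryas aged 15 to 19 and 9 males aged 6 to 13 (the labels give no unit of age), with 1 library per animal. All 17 animals ate a low-salt control chow throughout life. All were sedated with ketamine and kept under isoflurane while tissue was taken from the cortex under ultrasound guidance and frozen in liquid nitrogen, and buprenorphine was given for pain afterwards. The names of the libraries form 1 series for the females and 2 for the males, called series A (males 1 to 5) and series B (males 6 to 9) here, so sex, age and name series cannot be told apart. Female 1, female 2 and male 6 were muscle-rich: the summed signal of the 3 skeletal muscle genes that both tables hold, of 14 listed, was 59145 to 119508 in them and 1.27 to 22.04 in the other 14 libraries. Their summed kidney tubule markers were low, with a thick limb sum of 13.3 to 1011 against 1825 to 11548, so these 3 libraries go against the label of kidney cortex and results are given with and without them.

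FOS, JUN and JUNB are subunits of AP-1, a dimeric transcription factor, and ATF3 is a related leucine zipper protein that can pair with JUN. EGR1 is a zinc finger transcription factor and IER2 a nuclear protein induced by the same stimuli. Growth factors, ischaemia, stretch and osmotic stress act on them through MAP kinases and the serum response factor. DUSP1 is a phosphatase that switches MAP kinases off again, and is itself induced as an immediate early gene. In kidney they are known as fast responders to ischaemia and to handling of tissue.

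Among the 14 libraries that were not muscle-rich, FOS had a signal of 0.0921 at the lowest (female 3), a median of 3.09 and 44.8 at the highest (male 1). The lowest of these values is only 1.62 times the step found for that library (0.0569). That step is no exact floor, since single transcripts can lie below it (ATF3 variant X2 at 0.00059 there). The lowest FOS value is thus poorly measured. The next lowest was 0.903 (male 2), at 17.3 steps. JUN ranged from 14.2 (male 2) over a median of 24.1 to 79.8 (male 1), and JUNB from 6.91 (male 2) over 14.04 to 53.1 (male 1). The 3 AP-1 subunits were thus all highest in the same animal. EGR1 ranged from 3.67 (male 2) over a median of 8.39 to 87.9 (male 1). ATF3 ranged from 0.337 (female 3) over a median of 1.41 to 8.27 (female 6), with male 1 next at 8.07. DUSP1 ranged from 8.24 (male 2) over a median of 20.9 to 56.7 (male 1). IER2 had the narrowest range, from 19.3 (male 2) over 25.7 to 50.8 (male 1).

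**Figure D1:**
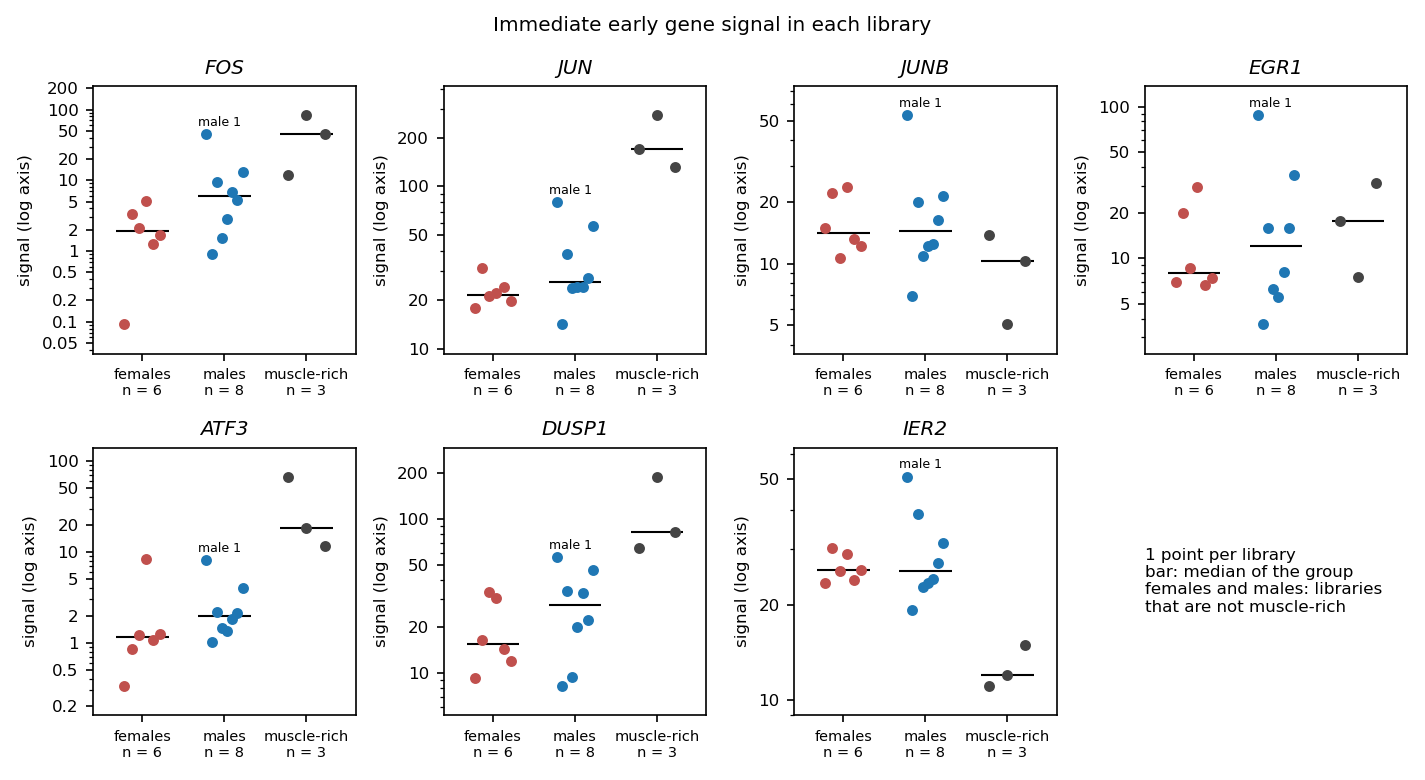
Signal of each of the 7 immediate early genes on a log axis, 1 point per library, in females (n = 6) and males (n = 8) that were not muscle-rich and in the 3 muscle-rich libraries, with a bar at each median. Male 1 is the highest of the 14 non-muscle-rich libraries for every gene except ATF3, and the muscle-rich points lie above all others for JUN, ATF3 and DUSP1 and below all others for IER2.

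The same libraries were high or low for most of the genes. Male 1 was first of 14 for 6 of 7 genes and second for ATF3. Male 9 was in the first 3 for 6 of 7 genes, with FOS at 12.9, JUN at 57.3 and EGR1 at 35.4. Male 2 was last for 5 of 7 and in the last 3 for all 7. Male 1 also stood high in thick limb markers. SLC12A1 (345.9), KCNJ1 (190.5), CLDN16 (36.1) and CLDN10 (76.4) were highest of the 14 libraries there, 4 of 5 such markers, and the sum of 10274, mostly UMOD, was second of 14. Its proximal tubule sum of 3468 was ninth, its immune sum of 156.0, mostly CD74, was twelfth and its endothelial sum of 96.3 was the lowest. The other immune markers of male 1 ranked higher, LYZ and CSF1R 4 of 14, CD68 5 and PTPRC 8. Female 3 was first for the thick limb sum (11548) and last for the proximal tubule sum (205.2). That library was last of 14 for FOS and ATF3 and in the last 3 for 4 of 7 genes. The part of cell content in these differences was not tested. In bulk tissue, fewer cells of a type and less RNA per cell cannot be told apart.

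Spread between libraries was taken as the SD of log2(signal + 1) after centring within sex, over the same 14 libraries. FOS had an SD of 1.25, at the 99.2 percentile of the 9575 genes, and EGR1 an SD of 1.21, at the 99.1 percentile. DUSP1 followed with 0.86 (95.2 percentile) and ATF3 with 0.82 (94.2 percentile). JUNB had 0.69 (88.1 percentile) and JUN 0.62 (82.4 percentile). IER2, with 0.35 (43.6 percentile), varied about as much as the median gene, which had an SD of 0.38. So 6 of 7 genes lay above the median of all genes, and 4 of 7 in the upper 10%. These ranks are a description with no test. The added offset of 1 compresses low values, which bears most on FOS and ATF3.

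The 7 genes went up and down together across the 14 libraries. Correlations were computed on log2(signal + 1) centred within sex, for 21 pairs, with 100000 permutations within sex and Benjamini-Hochberg adjustment over the pairs. Pearson's r ran from 0.60 (JUN with ATF3) to 0.95 (JUNB with EGR1), with a median of 0.88. Spearman's rho ran from 0.64 to 0.93, with a median of 0.83. All 21 pairs passed by both measures, with permutation adjusted p from 0.000168 to 0.0115 for r and up to 0.0208 for rho. Over all pairs of the 9575 genes the median r was 0.13, and 15.2% of pairs exceeded 0.5. How the deposited values were scaled is not known; with libraries scaled to a common median, 21 of 21 pairs passed as well.

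FOS, the member with the widest spread, had an r of 0.93 with EGR1, 0.91 with IER2, 0.89 with JUNB and DUSP1, 0.88 with JUN and 0.81 with ATF3. DUSP1, the phosphatase, was tied most closely to FOS and least to JUNB (r = 0.69). ATF3 had its highest r with EGR1 (0.83). IER2 varied little, yet its r with the 3 AP-1 subunits was 0.90 or more.

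The strength of these relations rested partly on a few libraries. After the 2 libraries farthest from the median of the first gene of each pair were left out (male 1 with male 2 or with female 6), 15 of 21 pairs passed, with a median r of 0.71 and a range of 0.32 to 0.90. The 6 pairs that no longer passed were JUN with ATF3 and with DUSP1, JUNB with ATF3 and with DUSP1, and IER2 with ATF3 and with DUSP1. Without male 1 alone, 20 of 21 pairs passed and the median r was 0.79; JUN with ATF3 then had an r of 0.39 (permutation adjusted p = 0.0764). Leaving out male 1 and the 2 libraries next highest in FOS left 10 of 21 pairs, with a median r of 0.67.

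The 2 sexes were also taken alone. In the 8 males all 21 pairs passed an exact permutation test, with r from 0.82 to 0.98, a median of 0.94 and a highest adjusted p of 0.0133. In the 6 females no pair passed an exact permutation test after adjustment (0 of 21, lowest adjusted p 0.214, 3 of 21 at an unadjusted p under 0.05, and 0 of 21 for rho). Their r ran from 0.03 (JUN with ATF3) to 0.90 (EGR1 with IER2), with a median of 0.57. The smallest p that 6 animals allow is 0.00139. The difference in r between the sexes was not tested. Male 1 was the highest and male 2 the lowest of the 8 males for every gene, and no value for males without them is given. No share of all gene pairs is given within a sex. Within the name series, 5 libraries of series A and 3 of series B remained, too few for a correlation in either.

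**Figure D2:**
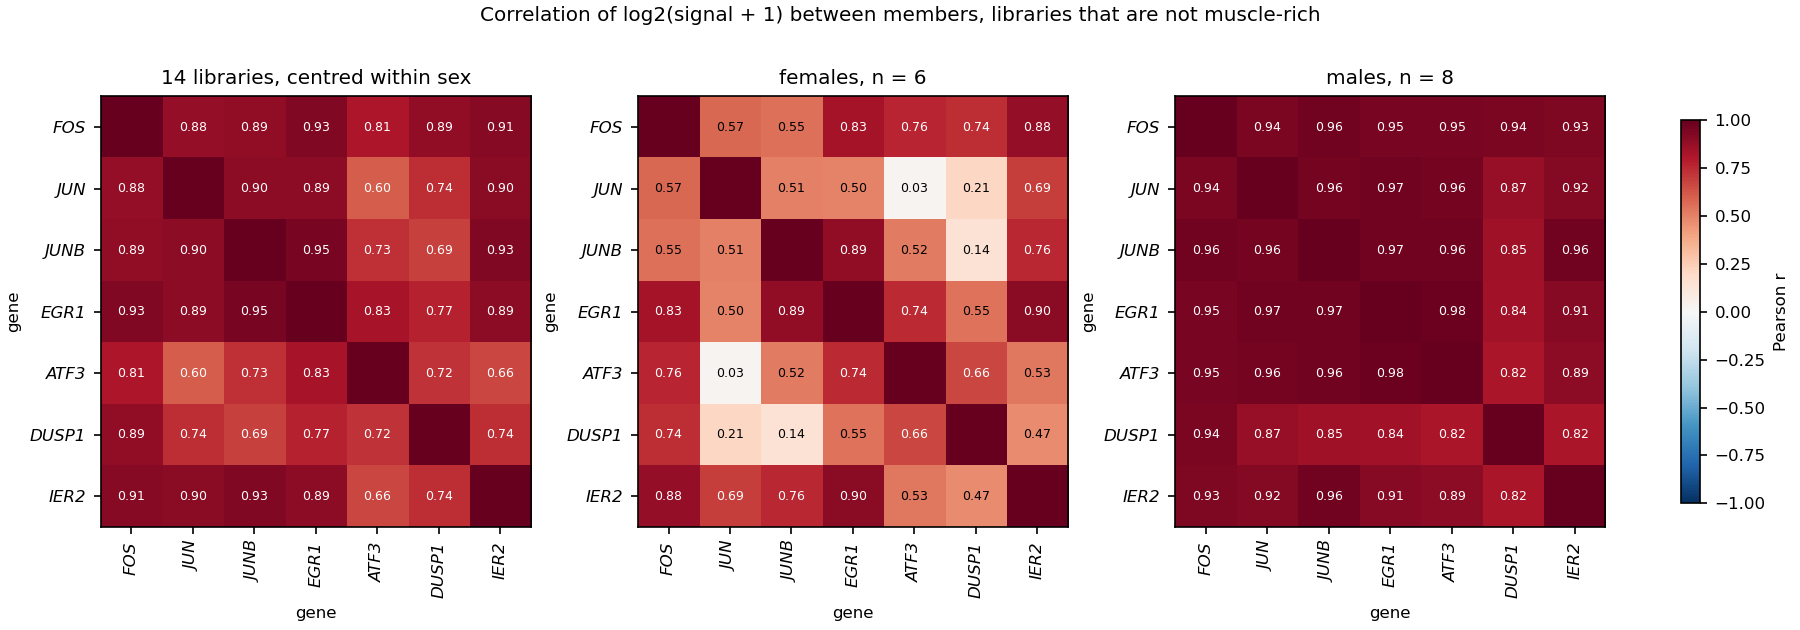
Pearson's r between the 7 genes on log2(signal + 1) in the libraries that were not muscle-rich, with the genes on both axes: 14 libraries centred within sex (left), the 6 females (middle) and the 8 males (right). Every value on the left is 0.60 or more, values in the males are 0.82 or more, and those in the females reach down to 0.03.

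The genes outside the 7 whose pattern was most like theirs, by mean r over the 14 libraries, were ELMOD1 (0.81), BTG2 (0.79), LOC110741545 (0.77), LIPC (0.76) and AMN1 (0.75). BTG2 is itself an immediate early gene that restrains proliferation, ELMOD1 encodes an ELMO domain protein and LIPC encodes hepatic lipase. The 3 genes most like FOS alone were ELMOD1 (0.88), BTG2 (0.86) and LOC110741545 (0.84). Each of the 5 was highest in male 1, as 6 of the 7 members were. BTG2 signal, for example, ran from 14.6 to 45.5. Of the 9575 genes, 2.56% had a mean r over 0.5, and the median was 0.04.

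Other genes of the response were taken from a list of 45 immediate early genes, of which 22 were in both tables and 20 were tested. In 5 of these 20 the mean r with the 7 members exceeded 0.5, and the median of the list was 0.37. These 5, named after their values were seen, were BTG2 (0.79), IER3 (0.75), CYR61 (0.66), SIK1 (0.56) and GADD45B (0.50). Among the 14 upstream kinases and factors tested (MAP kinases and the factors they act on), none exceeded 0.5 and the median was 0.07. None of the 11 heat shock genes or the 5 integrated stress genes did, with medians of 0.10 and −0.16.

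The study compares the sexes, so females were tested against males for all 9575 genes with limma on log2(signal + 1). None of the 7 immediate early genes passed (0 of 7 by limma with or without the trend, and 0 of 7 at an unadjusted p under 0.05), where 13.4% of genes did, 0.366% higher and 13.0% lower in females. The median over all genes was −0.28 on the log2 scale. FOS had a signal of 0.0921 to 83.0 in the 8 females, with a median of 2.74, and 0.903 to 45.5 in the 9 males, with a median of 6.79. The ranges overlapped, and the female minus male difference in log2(signal + 1) was −0.72 (95% interval −2.39 to 0.95, limma adjusted p = 0.596). JUN differed by 0.10 (−1.09 to 1.29) and JUNB by −0.19 (−0.90 to 0.51). EGR1 differed by −0.37 (−1.45 to 0.71) and ATF3 by 0.33 (−1.11 to 1.78). DUSP1 differed by 0.02 (−1.15 to 1.18) and IER2 by −0.29 (−0.82 to 0.23). Under median scaling 0 of 7 genes passed, against 4.45% of genes (1.65% higher and 2.8% lower), and under total scaling 0 of 7, against 4.91% (0.104% higher and 4.8% lower). The intervals as deposited leave room for differences of more than 1 on the log2 scale in either direction for JUN, ATF3 and DUSP1.

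Both groups hold muscle-rich libraries, 2 of 8 in females and 1 of 9 in males. Without them 0 of 7 genes passed while 38.1% of genes did, and 1 of 7 had an unadjusted p under 0.05. That gene was FOS, which ran from 0.0921 to 5.09 in 6 females (median 1.90) and from 0.903 to 44.8 in 8 males (median 6.02). Its female minus male difference was −1.30 (limma adjusted p = 0.0926), and JUN, ATF3 and DUSP1 changed sign. Against the 3 remaining males of series B alone, the FOS difference was −1.62 and passed (limma adjusted p = 0.0276), 1 of 7 genes where 31.5% of genes did. Against the 5 males of series A it was −1.11 (limma adjusted p = 0.299), 0 of 7 where 20.3% did. Between the 2 male series, none of the 7 genes passed, at an adjusted or an unadjusted p under 0.05, and limma called 0.0% of genes.

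Muscle-rich libraries were compared with the other 14 with a term for sex. Females 1 and 2 were aged 19, as was female 3, and male 6 was aged 12, where males were aged 6 to 13. Age was no term here, and its part in this contrast was not tested. FOS, JUN, ATF3 and DUSP1 were higher in the muscle-rich libraries and IER2 was lower, so 5 of 7 genes passed, 4 higher and 1 lower. The other AP-1 subunit, JUNB, and EGR1 did not pass. Most genes differ in this contrast: limma called 54.5% of genes, 22.6% higher and 31.9% lower. Among all genes, 14.7% lay higher and 15.7% lower in the muscle-rich libraries with no overlap between the groups.

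JUN had a signal of 170.1 in female 1, 274.5 in female 2 and 132.1 in male 6, all above the highest of the other libraries (79.8). Its difference was 2.78 on the log2(signal + 1) scale (SE 0.37, limma adjusted p = 3.71e-06). FOS had 12.1 in female 1, 83.0 in female 2 and 45.5 in male 6, and overlapped the others, since female 1 lies below male 1 (44.8) and male 9 (12.9). Its difference was 3.23 (SE 0.73, limma adjusted p = 0.00099). JUNB, by contrast, was 13.7, 5.05 and 10.3 in female 1, female 2 and male 6, of which the female 2 value lies below all 14 others (6.91 to 53.1). Its difference was −0.73 (SE 0.40, limma adjusted p = 0.135), and the difference between the 3 AP-1 subunits was not itself tested.

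ATF3 was 67.2 in female 1, 18.3 in female 2 and 11.7 in male 6, against at most 8.27 elsewhere, with a difference of 3.15 (SE 0.54, limma adjusted p = 6.59e-05). EGR1 was 17.5, 7.57 and 31.4 in female 1, female 2 and male 6, inside the range of the others (3.67 to 87.9). Its difference was 0.47 (SE 0.66, limma adjusted p = 0.571). DUSP1 was 64.4 in female 1, 188.4 in female 2 and 82.2 in male 6, above the highest other value of 56.7. Its difference was 2.28 (SE 0.50, limma adjusted p = 0.000763). IER2 ran the other way, at 11.1 in female 1, 12.0 in female 2 and 15.0 in male 6, below the lowest other value of 19.3. Its difference was −1.03 (SE 0.21, limma adjusted p = 0.000486).

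**Figure D3:**
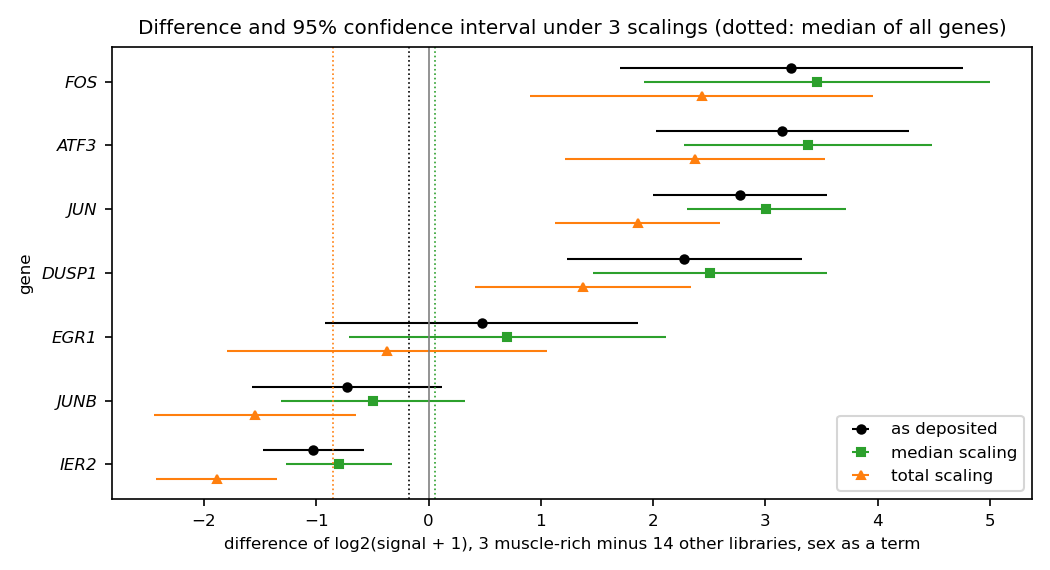
Difference in log2(signal + 1) between the 3 muscle-rich and the other 14 libraries for each gene, with its 95% interval from limma, with the values as deposited and after median and total scaling. FOS, JUN, ATF3 and DUSP1 lie above 0 and IER2 below 0 under all 3 scalings, JUNB falls below 0 with an interval that excludes it under total scaling, and EGR1 changes side.

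The scale of the libraries bears on these directions. The median of all genes in this contrast was −0.17 as deposited, 0.06 after scaling libraries to a common median and −0.85 after scaling to a common total, where the muscle transcripts take up much of the sum. Median scaling called 56.8% of genes, 30.7% higher and 26.1% lower, and total scaling called 67.2%, 9.61% higher and 57.6% lower. FOS, JUN, ATF3 and DUSP1 stayed higher and IER2 lower under all 3, with 6 of 7 genes passing under total scaling because JUNB fell by 1.55 (limma adjusted p = 0.00397). EGR1 turned to −0.37 there without passing. Relative to the median gene, the values as deposited were 3.40 for FOS, 3.32 for ATF3, 2.95 for JUN and 2.45 for DUSP1. The corresponding values were 0.64 for EGR1, −0.55 for JUNB and −0.86 for IER2. Among females alone the same 5 genes passed, against 45.9% of genes.

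Of 5 pairs of genes that moved together in kidney, some separated in the muscle-rich libraries and others did not. JUN exceeded JUNB by 3.54 to 5.51 on the log2(signal + 1) scale in the 3 muscle-rich libraries and by −0.10 to 1.38 in the other 14. DUSP1 exceeded IER2 by 2.38 to 3.87 in the muscle-rich libraries and by −1.25 to 0.55 in the others. FOS exceeded JUNB by −0.17 to 3.795 in the muscle-rich libraries and by −3.87 to −0.24 in the others, which came close without overlap. FOS minus EGR1 (−0.50 to 3.29 against −2.87 to −0.24) and EGR1 minus IER2 (−0.60 to 1.02 against −2.12 to 0.78) overlapped. All 3 muscle-rich libraries lay above the others for DUSP1 and below them for IER2, so that difference had to separate. The share of all gene pairs that separate in this way was not computed. The 5 pairs were picked after their values were seen and carry no test. Each value may mix the length of the transcripts with their amount, so only the shift between libraries is readable.

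**Figure D4:**
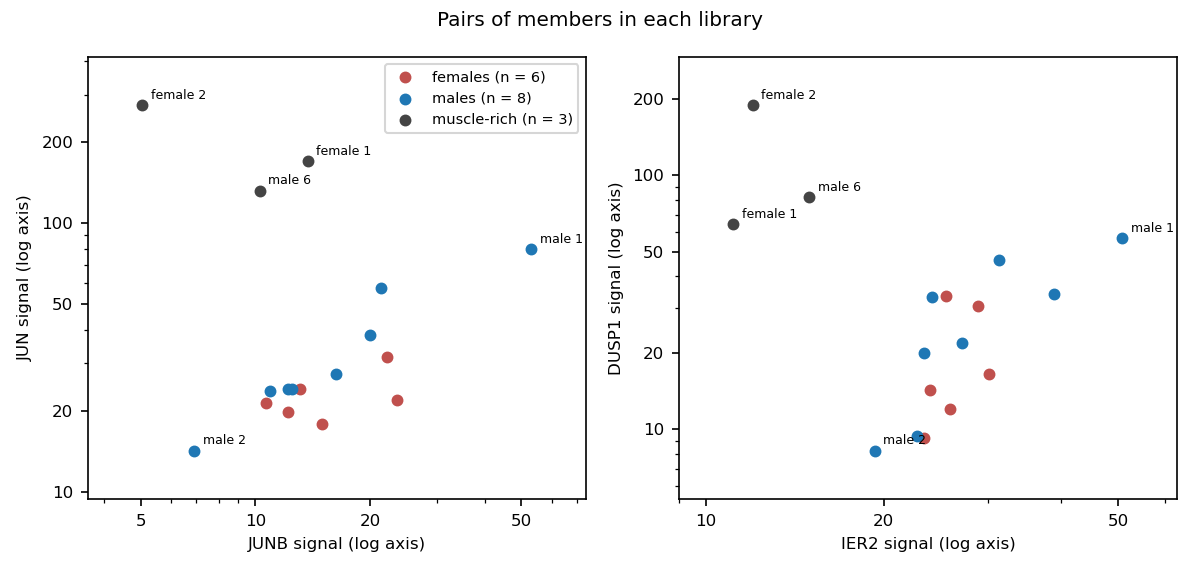
JUN against JUNB (left) and DUSP1 against IER2 (right), as signal on log axes, 1 point per library, for 6 females, 8 males and 3 muscle-rich libraries. The 14 libraries that are not muscle-rich rise together from male 2 to male 1 in both panels, and the muscle-rich libraries lie apart at high JUN and DUSP1 with low IER2.

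Other cell markers moved with this contrast. The summed smooth muscle and stroma markers were 1050 to 3831 in the muscle-rich libraries against 119.1 to 602.5, over 6 of 8 listed genes found. Immune markers were 267.0 to 412.0 against 119.6 to 443.7 (5 of 10 found), blood markers 140.2 to 526.8 against 40.9 to 784.0 (3 of 3) and endothelial markers 90.7 to 123.4 against 96.3 to 175.7 (5 of 7). Proximal tubule markers were 151.2 to 236.3 against 205.2 to 8096 (11 of 11), distal tubule and collecting duct markers 7.09 to 65.8 against 167.0 to 1450 (10 of 10), and the 1 podocyte marker found of 5 was 35.3 to 112.4 against 50.5 to 429.1. Some sums rest on 1 gene. In the muscle-rich libraries GATM alone was 81.0 to 219.9 and the immune marker CD74 265.0 to 389.8. By limma all proximal tubule markers but GATM were lower, 10 of 11, where 31.9% of all genes were. Of 5 endothelial markers CDH5 was higher, and KDR and PLVAP were lower. Of the 49 markers in both tables, 12 were at 0 in at least 1 muscle-rich library, 0 in all 3, and 3 in at least 1 other library. SLC5A2, CLDN16, ATP6V1G3 and FOXI1 were at 0 in 2 muscle-rich libraries. The 3 muscle-rich libraries had the fewest genes detected, 9244 to 9596 against 9700 to 9960. The part of depth in these zeros was not tested. The part of cell content in the differences of the immediate early genes was not tested.

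Of the 20 other immediate early genes tested, 8 were higher and 2 lower in the muscle-rich libraries by limma, with a list median of 0.45 against −0.17 for all genes. The total called, 10 of 20, is near the 54.5% of all genes called, of which 22.6% were higher and 31.9% lower. Among the higher were CEBPB, a leucine zipper factor of the acute response (4.01), BTG2 (2.86), IER5 (2.39) and the AP-1 subunit JUND (1.55). The lower were IER3, a survival factor (−1.54), and NFKBIZ, an atypical nuclear IκB protein (−1.25). BTG2 and IER3 were both among the closest to the 7 members within kidney, and went opposite ways here. Under total scaling the same list divided into 5 higher and 5 lower, and under median scaling into 11 higher and 2 lower.

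The lists that follow are read against the same shares, 22.6% higher and 31.9% lower (9.61% and 57.6% under total scaling). Of the 14 upstream kinases and factors, 2 were higher and 2 lower, fewer in all than the share of all genes. These were the SRF partners ELK1 (1.42) and ELK3 (0.60), and the kinases RPS6KA1 (−3.03) and MAP3K1 (−0.85). MAP3K1 lay near the threshold (limma adjusted p = 0.0491) and missed it under median scaling (−0.62, limma adjusted p = 0.131). ELK3 changed sign under total scaling (−0.24), where 1 was higher and 6 lower. Of 11 heat shock genes 8 were higher and 0 lower, with a list median of 1.85. They included the cochaperone BAG3 (4.15), the small heat shock protein HSPB1 (2.94), the chaperone HSP90AB1 (2.13) and their transcription factor HSF1 (1.85). Total scaling gave 6 higher and 3 lower in that list. Of the 5 integrated stress genes, 3 were higher and 2 lower. ATF4, the central factor of that response, was higher by 2.83, ATF5 by 1.43 and DDIT3 by 0.84. PSAT1, a serine synthesis enzyme (−2.48), and SESN2 (−1.23) were lower. DDIT3 was at −0.01 under total scaling.

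Between females and males, 13.4% of all genes were called, as given above, 0.366% higher and 13.0% lower. NFKBIA, the inhibitor of NF-κB, was higher in females by 0.63 and was 1 of 20 other immediate early genes called. ELK4 (−0.84) and ATF2 (−0.70) were the 2 of 14 upstream genes called, HSPD1 (−0.94) the 1 of 11 heat shock genes, and SESN2 (−1.42) and PSAT1 (−3.06) the 2 of 5 integrated stress genes, all lower in females by limma. The 3 upstream and heat shock calls were not made under either other scaling, and under total scaling NFKBIA (limma adjusted p = 0.0509) and SESN2 (limma adjusted p = 0.0683) missed the threshold.

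A further 11 immediate early genes of the list were read in the female table only, with no test. In 8 of the 11 both muscle-rich females lay above all 6 other females, where 63.9% of the 4299 genes read only in the female table (mean signal of 1 or more) did so, so most such genes separate this way. NR4A1, an orphan nuclear receptor, was 161.6 in female 1 and 325.9 in female 2 against 5.004 to 44.5. MCL1, a survival factor, was 157.6 and 142.6 against 28.3 to 39.8, and KLF10 was 51.6 and 103.2 against 5.40 to 10.8. NR4A2, KLF2, KLF4, PPP1R15A and TRIB1 lay above as well, and MYC, SOCS3 and DUSP5 overlapped. These genes were named after their values were seen.

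The 2 ATF3 transcripts are variant X1 from 1488031 to 1500102 and the longer X2 from 1447081 to 1500102, which share their end on the plus strand of sequence NW_018778491.1. The difference between tissues lay in X1, whose signal was 63.7, 18.1 and 11.7 in female 1, female 2 and male 6, against 0.0209 to 4.24 in the others with a median of 1.14. X2 was 3.52 in female 1, 0.158 in female 2 and 0.00058 in male 6. The first 2 lie within the range of the others (0.00059 to 6.44), and the male 6 value lies just below it. X2 made up 5.24% of ATF3 signal in female 1, 0.866% in female 2 and 0.00494% in male 6, and 0.175% to 97.9% in the others with a median of 13.4%. In 4 of those 14 libraries X2 exceeded X1, among them male 1, where 6.44 of the ATF3 signal was X2 and 1.63 was X1. The high ATF3 of male 1 and that of the muscle-rich libraries were thus in different variants, as deposited. The variants overlap, so the deposited split between them is uncertain, and males 2, 3 and 7 shared one share of 97.9%. This reading was made after the values were seen and carries no test.

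**Figure D5:**
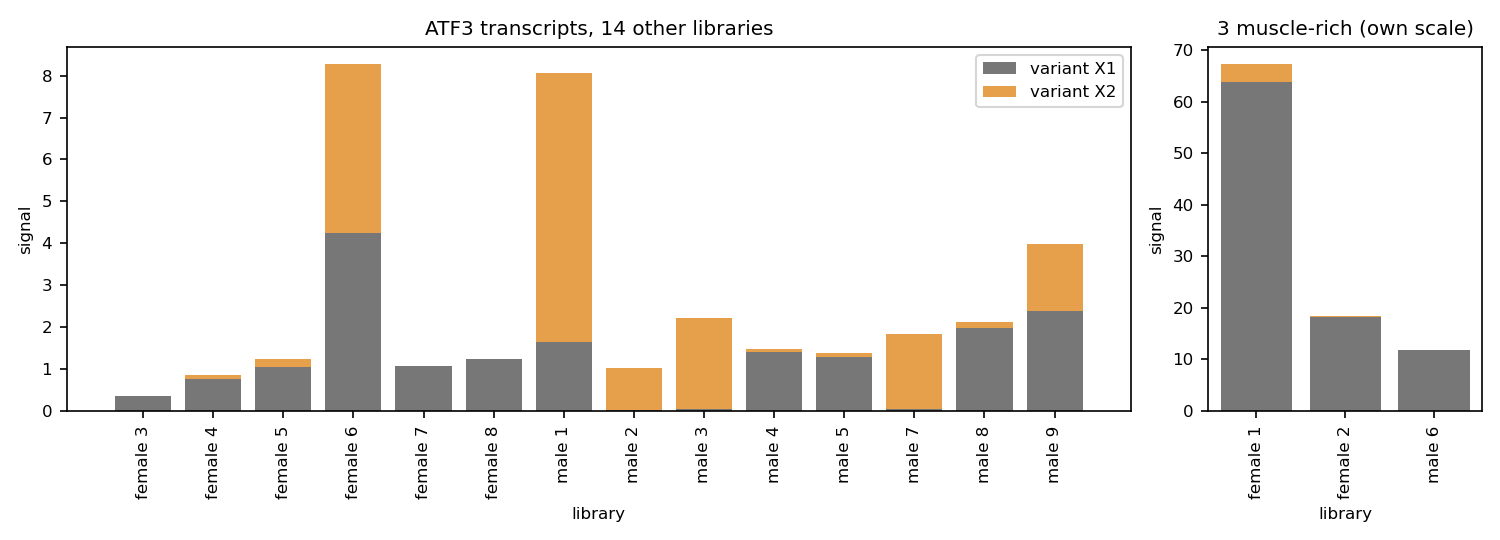
Signal of ATF3 in each library as bars from 0, divided into transcript variants X1 (grey) and X2 (orange), with the 14 other libraries on the left and the 3 muscle-rich libraries on the right on a scale of their own. X1 makes up nearly all of the bar in the muscle-rich libraries (11.7 to 63.7), whereas X2 makes up most of it in males 1, 2, 3 and 7.

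The authors' deposited table also gives each transcript a co-expression module, named by colour and made per sex. In the authors' deposited table of males, JUNB, EGR1, IER2 and ATF3 X2 shared the purple module, which holds 2121 of 17112 shared transcripts. FOS, JUN, DUSP1 and ATF3 X1 shared turquoise, which holds 4878 of these transcripts and is held in part here. In the authors' deposited table of females the 8 transcripts fell into 6 modules. JUN and DUSP1 were together there in blue, which holds 5611 of the 17112 shared transcripts. JUNB and ATF3 X2 were together in greenyellow, which holds 435. FOS was in green, EGR1 in cyan, ATF3 X1 in brown and IER2 in grey60. Those modules include the muscle-rich libraries. In both sexes the transcripts that were higher in muscle-rich libraries were never in a module with JUNB, EGR1 or IER2. In females JUNB, EGR1 and IER2 did not share a module with each other either. As the modules include the same libraries, this split is no separate evidence for the muscle-rich contrast.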

How the data were processed

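Stranded mRNA libraries of kidney cortex biopsies, 8 female and 9 male, were sequenced. Females and males have a table each, in which the authors deposited signal by transcript (rows) and library (columns), per the file headers. The submitters' processing notes name Partek. For the aligner, the scaling and the build: not given in the sources used here. The male table was held in part (17119 complete rows of transcripts, all used), so genes were read from the transcripts in both tables (10006 genes, 7 transcripts without a symbol left out). The offset of 1 was subtracted and transcripts were summed per gene. Of genes in both tables, 2097 have further transcripts in the female table, which were left out.

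Genes that reached a signal of 1 in 8 or more libraries were tested with limma 3.58.1 in R 4.3.3 on log2(signal + 1) with a trend, adjusted by Benjamini-Hochberg over 9575 genes, at a threshold of 0.05. The pseudocount of 1 understates changes of low genes. The design had a count test for counts, but values were not whole. Of low values, 50.7% to 72.6% were multiples of the step found for the library within a tolerance of 0.1, so whole reads were not recovered. That step, which would be larger in shallower libraries, was 0.0523 to 0.319, a 6.09-fold range. It is only a rough guide to depth, as many low values do not follow it and the scaling is unknown. The step was 0.119 in female 1, 0.159 in female 2 and 0.296 in male 6. Elsewhere it was at most 0.0946, except in female 6 (0.319). Summed signal was 255529 to 659319 per library and 9244 to 9960 genes were detected. The fewest were detected in female 1 (9493), female 2 (9244) and male 6 (9596), against 9700 or more in the others. Step and detection thus went with the muscle-rich contrast, and their part in it was not tested. p-values measure the spread between these animals.

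Correlations were run in Python 3.11.15 with scipy 1.17.1, numpy 2.4.6 and pandas 2.3.3. The members and gene lists were chosen with earlier results of these data known, as were the 3 muscle-rich libraries. Genes named were the 7 members, at most 4 called genes per list and direction by smallest p, the 5 most like the members and the 3 most like FOS. The scripts were checked on simulated data. No sequences were used here. Alternatives were other scalings, filters and pseudocounts, terms for age, subsets of libraries and leaving out each library.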

Additional observations from a re-analysis of the deposited data

Results flagged for a closer look

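ATF3 variant X1 in male 6 stood apart from the other males. Its log2(signal + 1) was 3.67, with the next highest male at 1.75, and the gap exceeded Dixon's 95% critical value for 9 samples. Male 6 is the muscle-rich male. Chance flags about 1 in 20 such sets, and this was 1 of 18 sets examined.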

How the results depend on the processing

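No paired analysis was made, since the groups are different animals with 1 library each. Female minus male differences, none past the threshold except where stated, changed sign in these settings. With age as a term, JUN was −1.74, JUNB 0.79, EGR1 0.020, ATF3 −1.56, DUSP1 −1.61 and IER2 0.93. With median scaling, JUNB was 0.15 and IER2 0.052. Against male series B alone, JUN was −0.25 and DUSP1 −0.54. Without the muscle-rich libraries, JUN was −0.48, ATF3 −0.42 and DUSP1 −0.44. With median scaling as well, JUN was −0.079, JUNB 0.34, EGR1 0.14, ATF3 −0.020, DUSP1 −0.042 and IER2 0.29. Without the muscle-rich libraries and against series A, JUN was −0.42, ATF3 −0.37 and DUSP1 −0.19. Against series B, JUN was −0.57, ATF3 −0.50 and DUSP1 −0.86, and 1 of 7 genes passed, FOS. Leaving out each library gave 0 to 0 calls, with JUN from −0.29 to 0.33, JUNB from −0.32 to 0.024, ATF3 from −0.21 to 0.60 and DUSP1 from −0.37 to 0.23. JUN changed sign without female 1, female 2 or male 2, ATF3 without female 1, JUNB without male 1, and DUSP1, which lay near 0, without either muscle-rich female and without several others.

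In the muscle-rich comparison, leaving out each library gave 5 to 5 calls. A minimum signal of 10 left 5 genes tested and 3 called, since FOS and ATF3 were not tested. EGR1 was −0.37 under total scaling. JUNB between the male series was −0.031 without the muscle-rich library. Of the 21 correlated pairs, 20 to 21 passed when each library was left out, 0 in females alone, where only 6 libraries remain, and 10 without male 1 and the 2 libraries next highest in FOS. The median spread of the 7 genes, 0.82, was 0.697 to 0.861 when each library was left out, 0.906 with a pseudocount of 0.1 and 1.24 over all 17 libraries. The cause of the other changes was not tested. Total scaling, the series subsets without muscle-rich libraries and the 2-library omission in FOS were chosen after seeing the data. Depth bears most on the lowest FOS and ATF3 values, those of female 3, at 1.62 and 5.93 steps. In every other library FOS was at 15.98 steps or more and ATF3 at 11.9 or more.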
